A study of Homo sapiens with 16 samples.

Results

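The genes described here are the 6 MYC network transcription factors MYC, MYCN, MAX, MXI1, MNT and MGA, taken by symbol from a deposited table of translation ratios that holds 28252 genes. All 6 had a ratio in all 8 cultures, as did 15864 genes of the table. The cells were H9 human embryonic stem cells, an established line grown without feeders in mTeSR1 medium. The 4 groups were cells given an siRNA against OCT4 (siOCT4) and kept in hypoxia, at 1% oxygen, siOCT4 cells kept at 20% oxygen, called normoxic here, and hypoxic and normoxic cells given a control siRNA at the same oxygen levels. Each group had 2 cultures, and each culture had an RNA library and a library of the RNA held in ribosome-nascent chain complexes (RNC). The translation ratio was read from the names in the table and labels to be a gene's RNC level divided by its RNA level, so that a higher ratio means relatively more of the mRNA in the ribosome-bound fraction. Either library can move the ratio, and levels of the single libraries were not analysed here. Nothing in the labels tells if both cultures of a group had separate origins, so the p-values cover the spread among these samples, which may be technical.

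MYC and MYCN are basic helix-loop-helix leucine zipper proteins that bind E-box DNA as dimers with MAX and activate genes of growth, metabolism and ribosome production. MXI1, MNT and MGA compete for the same partner: their dimers with MAX sit on E-boxes and recruit repressors, SIN3 complexes for MXI1 and MNT and the PRC1.6 Polycomb complex for MGA. In pluripotent stem cells MYC and MYCN sustain self-renewal, and MYC mRNA and protein are both short-lived.

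The family shares the stretch of coding sequence that meets the DNA. It is printed below for 5 members from the GENCODE 29 transcripts on GRCh38, 45 bases each, to show what the members have in common beyond their names. Capitals mark the codons of the histidine, glutamate and arginine that contact the E-box.
MYCN: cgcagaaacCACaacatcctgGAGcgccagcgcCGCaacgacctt
MAX: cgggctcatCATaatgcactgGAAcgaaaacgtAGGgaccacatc
MXI1: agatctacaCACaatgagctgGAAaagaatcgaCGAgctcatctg
MNT: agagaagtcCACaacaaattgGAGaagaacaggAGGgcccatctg
MGA: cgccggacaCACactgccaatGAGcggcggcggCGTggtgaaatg
The stretches were located by a search of each protein for a pattern that holds these 3 residues. The 3 residues are therefore the same in all 5 by selection, while the codons vary. The GC content of these stretches was 62.2% in MYCN, 51.1% in MAX, 44.4% in MXI1, 48.9% in MNT and 66.7% in MGA. Over whole transcripts the order was another: the median GC content of the annotated transcripts was 61.2% for MNT, 55.4% for MYC, 52.5% for MYCN, 51.2% for MAX, 45.3% for MXI1 and 42.8% for MGA. MGA also has by far the longest mRNA of the 6, with a median transcript length of 11859 bases against 765 bases for MAX.

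Transcript GC content matters for reading these values, because the ratio of all genes leaned on it, and differently in each group. Genes of 42 to 45% GC had a median ratio of 3.04 and 3.05 in the hypoxic siOCT4 cultures and medians of 3.08 and 2.70 in the normoxic control cultures. The same genes were at 1.24 and 1.20 in the normoxic siOCT4 cultures and at 1.01 and 1.16 in the hypoxic control cultures. Genes of 60 to 63% GC ran the other way, at 0.499 and 0.487 in hypoxic siOCT4 cells and at 0.439 and 0.649 in normoxic control cells. Each comparison is therefore given as deposited and again after the trend with GC content was removed within each culture, which is called GC corrected here. Each GC corrected difference, also where given as a fold, is relative to genes of like GC content and not a change of the ratio itself. The trend differed by group, so a treatment effect that follows GC content would be removed with it. Whether the trend came from the treatments or from the libraries was not tested. All 12 markers of pluripotent cells looked for had a ratio in all cultures, as did markers of other cells (4 of 4 for endoderm, 3 of 3 for neuroectoderm, 4 of 6 for trophoblast, 2 of 3 for mesoderm and 2 of 5 for fibroblasts), which says nothing of their level. POU5F1, the gene of OCT4, had ratios of 0.453 and 0.532 in hypoxic siOCT4 cells and 1.41 and 1.42 in normoxic siOCT4 cells. It had 1.13 and 0.810 in hypoxic control cells and 0.758 and 0.981 in normoxic control cells, and a ratio gives no measure of the knockdown. In bulk cultures a change in the mix of cells and a change within the cells cannot be told apart.

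MYC, the growth-promoting activator that gives the network its name, had ratios of 1.37 and 1.19 in hypoxic siOCT4 cells and 1.05 and 1.01 in normoxic siOCT4 cells. In control cells it had 1.34 and 1.13 at 1% oxygen and 0.616 and 0.751 at 20% oxygen. The normoxic control cultures were the lowest of the 8, and both 1% groups lay above both 20% groups. Set against genes whose GC content was within 1.5 percentage points, MYC was 1.77 and 1.598 times their median in hypoxic siOCT4 cells and 1.34 and 1.25 times in hypoxic control cells. It was 1.03 and 0.992 times their median in normoxic siOCT4 cells and 0.901 and 0.912 times in normoxic control cells. Among its GC peers, then, MYC stood above the middle in all 4 cultures at 1% oxygen and close to it in the 4 at 20% oxygen.

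MYCN, the paralogue that is the main MYC gene of many neural and early embryonic cells, had the widest range of the 6. Its ratios were 1.61 and 0.779 in hypoxic siOCT4 cells and 0.967 and 1.01 in normoxic siOCT4 cells. In control cells they were 0.195 and 0.193 at 1% oxygen and 0.605 and 0.796 at 20% oxygen. The hypoxic control cultures stood far below every other culture, and the 2 hypoxic siOCT4 cultures lay on either side of the normoxic siOCT4 cultures. In the hypoxic control cultures MYCN ranked at percentile 0.864 and 1.02 of all tested genes, and its ratio was 0.188 and 0.189 times the median of genes of like GC content. In the other 6 cultures it lay between percentile 28.6 and 55.7. The value of 0.779 was shared by at least 3 genes of that culture, while the other 7 MYCN values were not shared in this way.

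The MYCN gene overlaps MYCNOS, an RNA from the opposite strand, and whether the counting used strand is not given in the sources used here, so reads of the pair could not be told apart. MYCNOS had ratios of 0.707 and 0.632 in hypoxic siOCT4 cells and 0.835 and 0.798 in normoxic siOCT4 cells. In control cells it had 0.376 and 0.196 at 1% oxygen and 0.115 and 0.769 at 20% oxygen. MYCNOS was thus also low in both hypoxic control cultures, and lowest in 1 of the normoxic control cultures.

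MAX, the shared dimer partner on E-boxes, varied least. It had ratios of 1.33 and 1.08 in hypoxic siOCT4 cells and 1.36 and 1.48 in normoxic siOCT4 cells, against 1.41 and 1.41 in hypoxic control cells and 1.05 and 1.30 in normoxic control cells. The highest culture was 1.41 times the lowest. The SD of its log2 ratio over the 8 cultures, 0.19, was at percentile 1.43 of the SDs of all tested genes, while that of MYCN, 1.11, was at percentile 81.7. MAX overlaps FNTB and CHURC1-FNTB, which lie on the opposite strand. FNTB had ratios of 0.441 and 0.523 in hypoxic siOCT4 cells and 0.578 and 0.331 in normoxic siOCT4 cells. In control cells it had 1.44 and 1.63 at 1% oxygen and 0.393 and 0.474 at 20% oxygen. MAX did not follow this range. CHURC1-FNTB had 0.633 and 0.627 in hypoxic siOCT4 cells and 0.851 and 0.952 in normoxic siOCT4 cells. Its control values were 1.24 and 1.26 at 1% oxygen and 0.525 and 0.591 at 20% oxygen. As with MAX, its hypoxic control and normoxic siOCT4 cultures lay above the rest. Whether the overlapping genes shared reads was not tested.

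MXI1, a MAX partner of the MXD family that recruits SIN3 corepressors, had ratios of 2.80 and 2.62 in hypoxic siOCT4 cells and 1.23 and 1.13 in normoxic siOCT4 cells. In control cells it had 1.26 and 1.62 at 1% oxygen and 2.56 and 3.21 at 20% oxygen. The cultures formed 2 levels, high in hypoxic siOCT4 and normoxic control cells, low in the other 2 groups. Against genes of like GC content MXI1 kept to a narrower band, between 0.977 and 1.57 times their median in all 8 cultures. Its values in the second hypoxic control culture and the second normoxic siOCT4 culture were ones shared by other genes.

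MGA, the largest protein of the network and the scaffold that ties MAX to the PRC1.6 complex, was high in the same 2 groups as MXI1, with more contrast. Its ratios were 4.04 and 3.64 in hypoxic siOCT4 cells and 0.865 and 0.667 in normoxic siOCT4 cells. In control cells they were 0.688 and 0.890 at 1% oxygen and 2.06 and 1.74 at 20% oxygen. The hypoxic siOCT4 cultures were the highest and did not overlap with any other group, the normoxic control cultures came next, and the remaining 2 groups overlapped. Against genes of like GC content MGA was 1.25 and 1.13 times their median in hypoxic siOCT4 cells and 0.685 and 0.546 times in normoxic siOCT4 cells. In control cells it was 0.680 and 0.758 times their median at 1% oxygen and 0.590 and 0.574 times at 20% oxygen. The hypoxic siOCT4 cultures were thus the 2 in which MGA exceeded its GC peers.

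MNT, a widely expressed MAX partner that opposes MYC through SIN3, had ratios of 1.00 and 1.15 in hypoxic siOCT4 cells and 0.927 and 0.884 in normoxic siOCT4 cells. In control cells it had 0.724 and 0.597 at 1% oxygen and 0.424 and 0.680 at 20% oxygen. All 4 siOCT4 cultures lay above all 4 control cultures. As the member of highest GC content, MNT was 1.99 and 2.34 times the median of genes of like GC content in hypoxic siOCT4 cells. It was 0.943 and 0.880 times that median in normoxic siOCT4 cells, 0.691 and 0.720 times in hypoxic control cells and 0.950 and 1.05 times in normoxic control cells. Its value in the second normoxic siOCT4 culture was one shared by other genes. Against its GC peers MNT was well above the median in the hypoxic siOCT4 cultures and near or below it in the other 6.

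**Figure D1:**
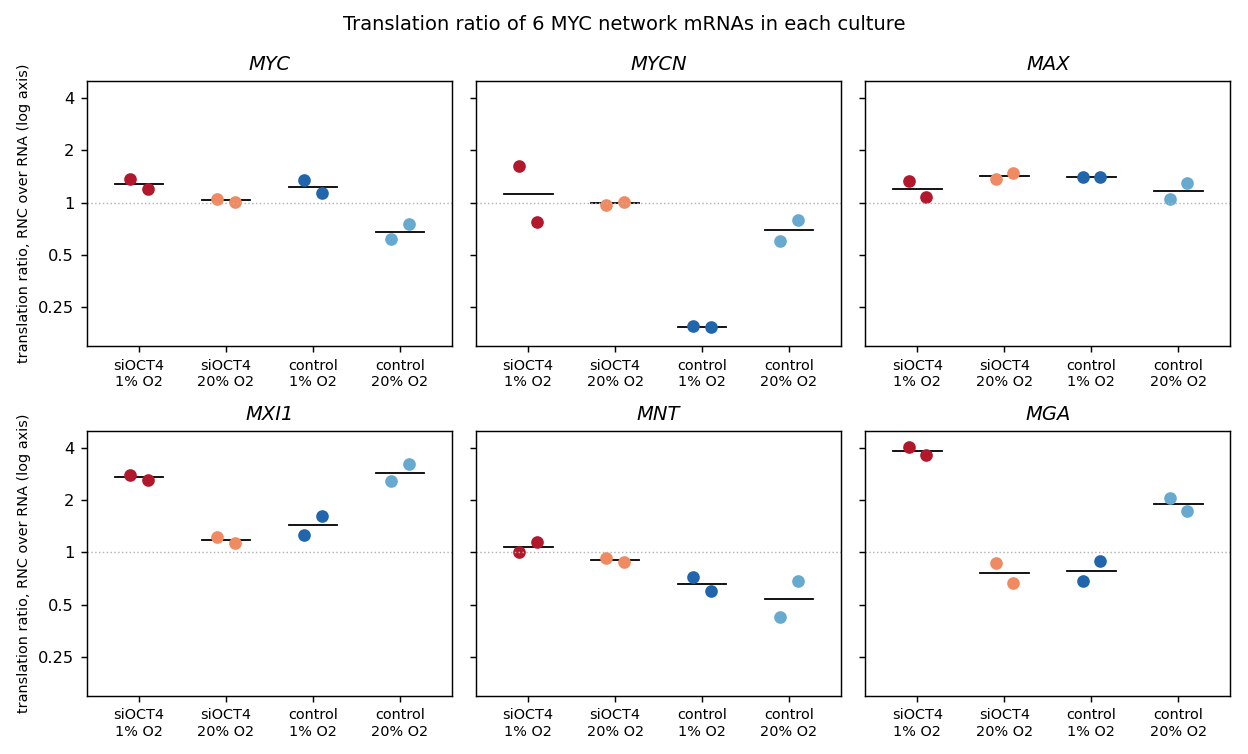
Translation ratio (RNC over RNA, log axis) of each member in the 8 cultures, 1 panel per gene. Points are cultures, horizontal lines the group means on the log2 scale (2 cultures each), and the dotted line a ratio of 1. MYCN in hypoxic control cells is the lowest pair, at 0.195 and 0.193, and MGA in hypoxic siOCT4 cells the highest, at 4.04 and 3.64.

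The plot of ratios against transcript GC content sets the members beside the running median of all genes. In hypoxic siOCT4 cells MXI1 and MGA lay on or near the steep median line, while MYC and MNT lay above it. In hypoxic control cells the median line was flat in the first culture and shallow in the second, and MYCN lay far under both.

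**Figure D2:**
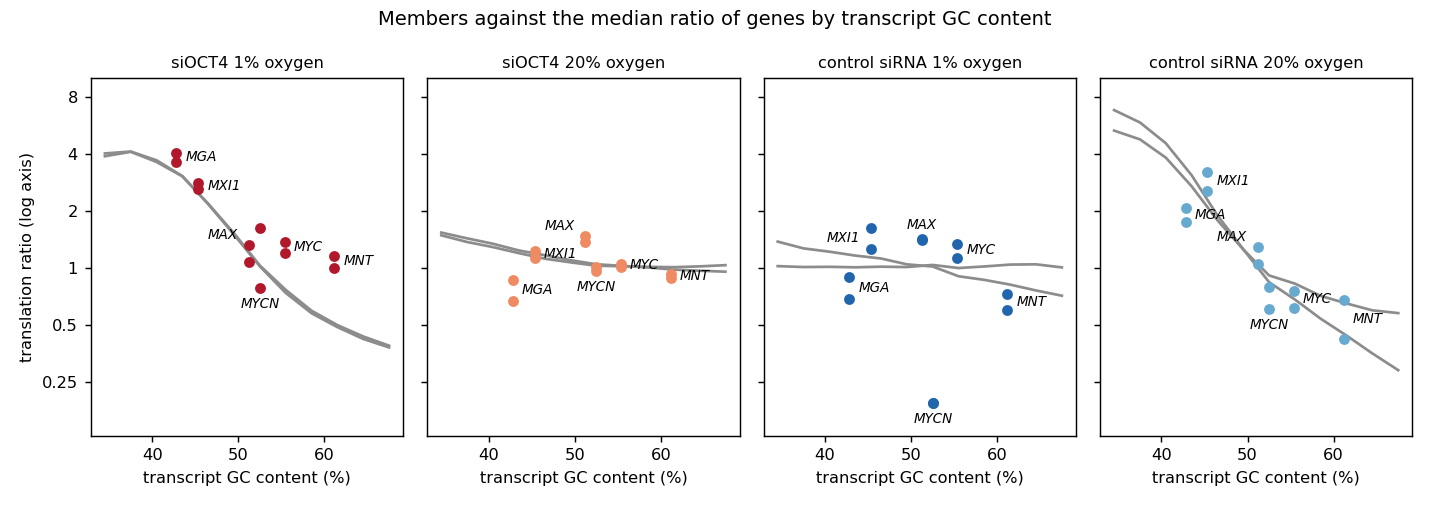
Translation ratio (log axis) of the 6 members against the median GC content of their transcripts (percent), 1 panel per group. Points are cultures, and each grey line is the median ratio of all genes by GC content in 1 culture. MNT, at 61.2% GC, lies above the lines in hypoxic siOCT4 cells, with ratios of 1.00 and 1.15.

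The 4 single-factor comparisons and their interaction were fitted with limma over all tested genes, and a gene was called at a Benjamini-Hochberg adjusted p under 0.05. Each group enters 2 of the single-factor comparisons, so these are not independent of each other. The fits were also run with each culture left out in turn. Leaving out a culture that is not part of a single-factor comparison changes its SE and p-value, but not its difference. Each difference below is on the log2 scale, with its SE and n = 2 cultures a group.

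The first comparison asks what the OCT4 siRNA did at 20% oxygen. As deposited, MYC and MNT were higher and MXI1 and MGA lower in siOCT4 cells, and none of these calls was left after GC correction. The 2 members called higher compare with 19.2% of all tested genes called higher, and the 2 called lower with 34.1% called lower. MYC was 1.51-fold higher (log2 difference 0.60, SE 0.17, adjusted p = 0.0281 by limma), and MNT 1.69-fold higher (0.75, SE 0.26, adjusted p = 0.0498). MXI1 was 2.44-fold lower (log2 difference −1.29, SE 0.19, adjusted p = 0.00262), and MGA 2.49-fold lower (−1.32, SE 0.21, adjusted p = 0.00352). MYCN differed by 0.51 (SE 0.36, adjusted p = 0.267) and MAX by 0.29 (SE 0.17, adjusted p = 0.201). GC corrected, 0 of 6 members were called by limma, where 7.43% of genes were called higher and 7.74% lower. The largest corrected difference was that of MXI1, −0.37 (SE 0.17, adjusted p = 0.204), and those of MYC and MGA were 0.12 and 0.02. At an unadjusted p under 0.05 the count was also 0 of 6. The calls of MYC and MNT were also the ones that did not hold in every fit that left out 1 culture. A fit with fewer cultures can lose a call with little change of the difference. Without the first normoxic control culture the difference was 0.45 for MYC and 0.41 for MNT. With the other cultures left out in turn, the MYC call was lost without either normoxic siOCT4 culture (0.57 and 0.63), and MNT kept its call in 1 of the 8 fits, that without the second normoxic control culture.

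The second comparison asks the same at 1% oxygen. MYCN was 5.79-fold higher in siOCT4 cells (log2 difference 2.53, SE 0.36, adjusted p = 0.00177 by limma), 1.61 and 0.779 against 0.195 and 0.193 in control cells. MGA was 4.90-fold higher (2.29, SE 0.21, adjusted p = 0.000432) and MXI1 1.89-fold higher (0.92, SE 0.19, adjusted p = 0.00702). Together 3 of 6 members were called higher and 0 lower (also 0 at an unadjusted p under 0.05), where 41.1% of all tested genes were called higher and 19.9% lower. MNT differed by 0.71 (SE 0.26, adjusted p = 0.0534; 0.0136 and 0.0139 without the first or second normoxic control culture), MYC by 0.05 (SE 0.17, adjusted p = 0.802) and MAX by −0.24 (SE 0.17, adjusted p = 0.267).

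After GC correction the set of calls at 1% oxygen was another. MYCN kept its difference (2.44, SE 0.34, adjusted p = 0.00332), MNT was 2.73-fold higher (1.45, SE 0.13, adjusted p = 0.0012), and MGA was 1.76-fold higher (0.82, SE 0.14, adjusted p = 0.00697). MXI1 turned to −0.24 (SE 0.17, adjusted p = 0.309). MAX was 1.43-fold lower (−0.51, SE 0.15, adjusted p = 0.0378), so that 3 members were called higher and 1 lower by limma, where 22.0% of genes were called higher and 23.0% lower. MYC differed by 0.31 (SE 0.11, adjusted p = 0.071). MYCN was called in all 8 fits that left out 1 culture, both as deposited and corrected. Its difference was 2.01 without the first hypoxic siOCT4 culture and 3.06 without the second. MNT and MGA were called in all 8 corrected fits too. When transcript length was corrected for as well, the MGA difference was 0.30 (adjusted p = 0.118) and that of MAX was 0.04, while MYCN and MNT kept their calls. The corrected MAX call was lost in 5 of the 8 fits: the difference was −0.37 (adjusted p = 0.178) without the second hypoxic siOCT4 culture, and between −0.52 and −0.51 without either hypoxic control culture or either normoxic siOCT4 culture.

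The third comparison asks what low oxygen did in control siRNA cells. MYC and MYCN parted here: MYC was 1.81-fold higher at 1% oxygen (log2 difference 0.86, SE 0.17, adjusted p = 0.00619 by limma) and MYCN 3.58-fold lower (−1.84, SE 0.36, adjusted p = 0.006). MXI1 was 2.00-fold lower (−1.003, SE 0.19, adjusted p = 0.00499) and MGA 2.42-fold lower (−1.27, SE 0.21, adjusted p = 0.00296). So 1 member was called higher, where 20.5% of all tested genes were, and 3 lower, where 39.6% were. MAX differed by 0.28 (SE 0.17, adjusted p = 0.207) and MNT by 0.29 (SE 0.26, adjusted p = 0.36), which was 0.63 (adjusted p = 0.0402) without the second normoxic control culture and −0.05 without the first.

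GC corrected, MYC and MYCN kept their opposite directions in control cells while MXI1 and MGA lost their calls. MYC was 1.40-fold higher at 1% oxygen (0.48, SE 0.11, adjusted p = 0.0176) and MYCN 3.92-fold lower (−1.97, SE 0.34, adjusted p = 0.00618). MXI1 stood at 0.06 (SE 0.17, adjusted p = 0.807) and MGA at 0.28 (SE 0.14, adjusted p = 0.164), both with the sign turned. Relative to genes of like GC content MNT was 1.36-fold lower (−0.44, SE 0.13, adjusted p = 0.033), also against its sign as deposited. That made 1 of 6 members higher, where 23.2% of genes were called higher by limma, and 2 lower, where 22.9% were called lower. MYCN was called in all 8 fits that left out 1 culture on both scales, and MYC in all 8 as deposited. The corrected MYC call was lost without the first hypoxic control culture (0.41, adjusted p = 0.0799) or the first normoxic control culture (0.47, adjusted p = 0.0601). The corrected MNT call was kept in 2 of the 8 fits, those without a hypoxic siOCT4 culture, which is not part of this comparison. The 8 differences lay between −0.52 and −0.36.

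The fourth comparison asks what low oxygen did in siOCT4 cells. As deposited, MGA was 5.05-fold higher at 1% oxygen (log2 difference 2.34, SE 0.21, adjusted p = 0.000721 by limma) and MXI1 2.30-fold higher (1.20, SE 0.19, adjusted p = 0.00286). These 2 members called higher compare with 37.4% of all tested genes, and the 0 called lower (also 0 at an unadjusted p under 0.05) with 21.6%. MYC differed by 0.31 (SE 0.17, adjusted p = 0.158), MNT by 0.25 (SE 0.26, adjusted p = 0.436), MYCN by 0.18 (SE 0.36, adjusted p = 0.691) and MAX by −0.25 (SE 0.17, adjusted p = 0.253). MYCN, which fell at 1% oxygen in control cells, had a 95% interval of −0.71 to 1.07 in siOCT4 cells.

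After GC correction MNT was 2.21-fold higher at 1% oxygen in siOCT4 cells (1.14, SE 0.13, adjusted p = 0.00321), MGA 2.11-fold higher (1.07, SE 0.14, adjusted p = 0.00452) and MYC 1.59-fold higher (0.67, SE 0.11, adjusted p = 0.00835). MXI1 stood at 0.19 (SE 0.17, adjusted p = 0.439) and MAX at −0.46 (SE 0.15, adjusted p = 0.0591). Thus 3 of 6 members were called higher by limma, where 19.2% of genes were, and 0 lower (1 at an unadjusted p under 0.05, MAX), where 18.4% were. MGA and MNT were called in all 8 corrected fits that left out 1 culture. MYC was called in 7 of them and was at 0.65 (adjusted p = 0.0605) without the second normoxic siOCT4 culture. MYC was higher at 1% oxygen in both siRNA groups on the corrected scale, by 0.48 in control cells and 0.67 in siOCT4 cells, and the test of the difference between these is given next.

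The interaction asks whether the effect of the OCT4 siRNA differed between 1% and 20% oxygen, and equally whether the effect of 1% oxygen differed between siOCT4 and control cells. As deposited it was called for MGA (log2 3.61, SE 0.29, adjusted p = 0.000151 by limma), MXI1 (2.21, SE 0.27, adjusted p = 0.000645) and MYCN (2.02, SE 0.51, adjusted p = 0.0135). For all 3 the siOCT4 effect was more positive at 1% oxygen, so 3 of 6 members were called higher, where 42.5% of all tested genes were, and 0 lower (also 0 at an unadjusted p under 0.05), where 26.2% were. MYC had an interaction of −0.54 (SE 0.24, adjusted p = 0.0866; −0.69 and 0.0487 without the second normoxic control culture), MAX of −0.53 (SE 0.24, adjusted p = 0.0986) and MNT of −0.04 (SE 0.36, adjusted p = 0.922).

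GC corrected, the MYCN interaction was 2.13 (SE 0.48, adjusted p = 0.0159), close to its value as deposited. The MNT interaction became 1.58 (SE 0.18, adjusted p = 0.00185), and that of MGA came down to 0.80 (SE 0.20, adjusted p = 0.0248). MXI1 stood at 0.13 (SE 0.25, adjusted p = 0.704), MYC at 0.19 (SE 0.16, adjusted p = 0.385) and MAX at −0.76 (SE 0.21, adjusted p = 0.0334). This gave 3 members called higher by limma, where 22.5% of genes were, and 1 lower, where 21.8% were. MNT was called in all 8 fits that left out 1 culture. MYCN was called in all 8 as deposited and in 7 corrected; without the first normoxic siOCT4 culture its corrected value was 2.07 (adjusted p = 0.0544). The corrected MGA call was kept in 4 of the 8 fits. Its value was 0.72 without the first hypoxic control culture, 0.77 without the first normoxic control culture, 0.71 without the first hypoxic siOCT4 culture and 0.64 without the second normoxic siOCT4 culture. The corrected MAX call was kept in 2 fits, those without the first hypoxic siOCT4 or the second normoxic control culture, and its values ran from −0.91 to −0.62. With length corrected for as well, MGA stood at 0.41 (adjusted p = 0.121) and MAX at −0.19 (adjusted p = 0.504), so that neither was called.

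**Figure D3:**
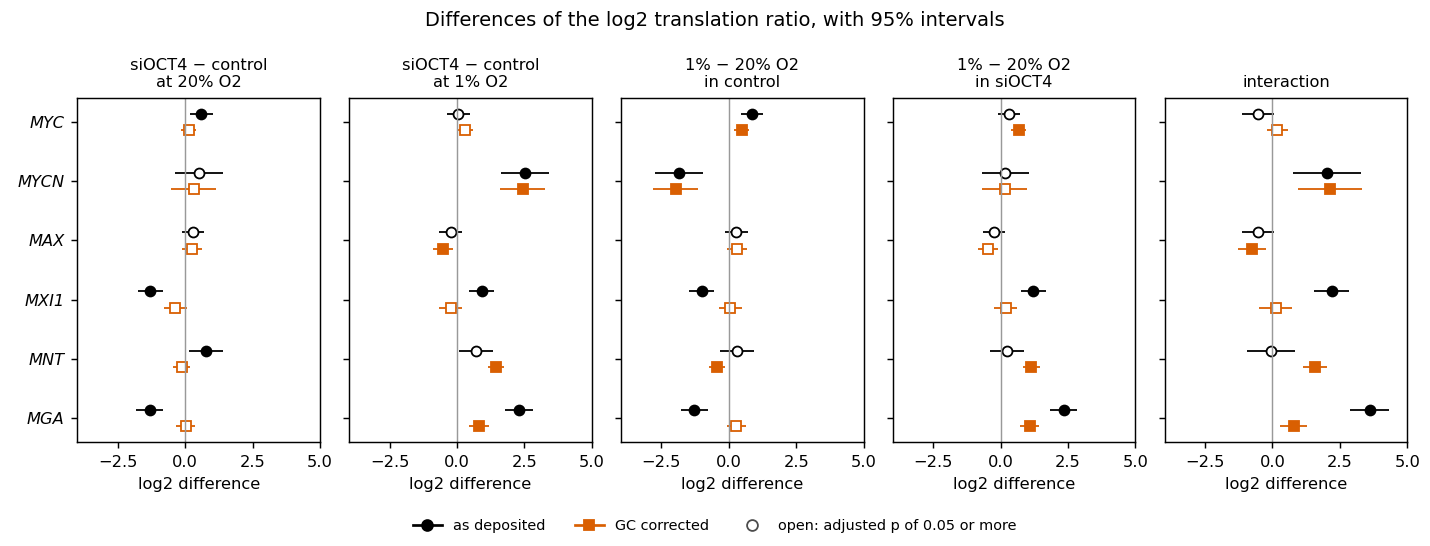
Log2 difference of the translation ratio of each member in the 4 single-factor comparisons and the interaction, with 95% intervals from limma (n = 2 cultures a group). Black circles are the ratios as deposited and orange squares the GC corrected ones, and open symbols have an adjusted p of 0.05 or more. MYCN at 1% oxygen stays near 2.5 on both scales, while MXI1 has no call in any comparison after correction.

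The plot of differences separates the members by how far the 2 scales part. For MYCN they lay within 0.20 of each other in every comparison, and for MAX between 0.02 and 0.27 apart. The correction could move genes of such GC content little. At 51 to 54% GC the culture medians ran only from 0.840 (a normoxic control culture) to 1.045 (a normoxic siOCT4 culture). The GC content of MYCN is the median of 2 transcripts, at 48.1% and 56.9%. Whether MYCN would shift more at either value was not tested. For MGA the 2 scales lay between 1.26 and 2.81 apart, and for MXI1 between 0.92 and 2.08. MNT shifted up by correction where hypoxic siOCT4 cells were compared and down in the other 2 single-factor comparisons.

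The genes whose pattern over the 8 cultures was nearest to MYC, MYCN, MAX, MXI1 and MGA were sought among the 8087 tested genes with no shared ratio, by the root-mean-square difference of the centred log2 ratios. MYCN had ID1 and SALL2 nearest, at 0.31 and 0.33. ID1, an inhibitor of helix-loop-helix DNA binding, had ratios of 1.07 and 0.981 in hypoxic siOCT4 cells and 0.263 and 0.239 in hypoxic control cells. ID1 was chosen for its likeness to MYCN, so its low values in the hypoxic control cultures follow from the choice. SALL2, a zinc finger factor, had 1.04 and 1.01 in hypoxic siOCT4 cells and 0.203 and 0.206 in hypoxic control cells. Nearest to MGA were BAZ1B, a chromatin remodelling subunit, and RALGAPB, at 0.09 and 0.10, and nearest to MXI1 were NSUN7 and TMEM68, at 0.10 and 0.11. MYC had AKAP8 and C15orf40 nearest at 0.09 and 0.10, and MAX had ZNF395 and VANGL2 at 0.07 and 0.09. On the GC corrected scale the nearest genes were others for each of these 5 members, for example CCDC8 and KIF26A for MYCN at 0.25 and 0.29.

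The 7 lists of other genes around the network hold 120 further tested genes, and they are described by counts and medians beside those of all tested genes. In siOCT4 against control cells at 1% oxygen the background was 41.1% higher and 19.9% lower (22.0% and 23.0% corrected), and at 1% against 20% oxygen in control cells 20.5% and 39.6% (23.2% and 22.9% corrected). The other factors of the MYC, MAX and MLX network were 7, among them MYCL and the MXD proteins. None was called higher and 3 lower in siOCT4 against control cells at 1% oxygen, with a median log2 difference of −0.31 against 0.42 over all genes. GC corrected, 2 were higher and 2 lower. MYCL, the third MYC paralogue, fell at 1% oxygen in control cells, with ratios of 0.625 and 0.585 against 0.825 and 1.05 at 20% oxygen (log2 −0.62, SE 0.18, adjusted p = 0.028 by limma; −1.03 corrected, adjusted p = 0.0021). MYCL and MYCN were therefore both lower at 1% oxygen in control cells, and MYC was higher. MLX, the partner of the glucose-sensing factors, fell at 1% oxygen in siOCT4 cells, at 0.821 and 0.909 against 1.16 and 1.20 at 20% oxygen (−0.45 as deposited and −0.80 corrected). MXD3, a relative of MXI1, had 0.418 and 0.398 in hypoxic siOCT4 cells against 1.17 and 1.07 at 20% oxygen. Its difference of −1.45 was called as deposited and became −0.31 when corrected (adjusted p = 0.0724).

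The 15 cofactors of MYC, such as histone acetyltransferases and chromatin remodellers, were called higher in 6 cases and lower in 5 in siOCT4 against control cells at 1% oxygen, and in 5 and 4 cases after GC correction. At 1% against 20% oxygen in control cells 9 were called higher and 4 lower, and 6 and 2 corrected. BPTF, a nucleosome remodelling factor that MYC binds, had 3.06 and 3.21 in hypoxic siOCT4 cells against 0.397 and 0.600 in control cells (log2 2.68, corrected 1.32, adjusted p = 0.00286). EP300, a histone acetyltransferase, had 2.36 and 2.35 in hypoxic siOCT4 cells against 0.763 and 0.733 at 20% oxygen (1.65, corrected 1.56, adjusted p = 0.00269). RUVBL2, a helicase of the TIP60 complex, fell in hypoxic siOCT4 cells, to 0.343 and 0.328 against 1.25 and 0.793 in control cells (−1.57, corrected −0.91). DPY30, a subunit of histone methyltransferase complexes, had 0.871 and 0.926 in hypoxic control cells against 5.10 and 2.81 at 20% oxygen (−2.08, corrected −0.98). In siOCT4 cells its difference between 1% and 20% oxygen was −0.54 as deposited and −1.57 corrected (adjusted p = 0.0105).

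Regulators of MYC protein stability had larger differences as deposited. Of 14 tested, 11 were called higher and 2 lower in siOCT4 against control cells at 1% oxygen, with a median of 1.34 against 0.42 over all genes. Corrected, 6 were higher and 3 lower, with a median of 0.12 against −0.02. In control cells at 1% against 20% oxygen 3 were higher and 8 lower, and 5 and 4 corrected. CIP2A, which protects MYC from dephosphorylation, had 0.479 and 0.521 in hypoxic control cells against 10.3 and 6.79 at 20% oxygen (log2 −4.06, corrected −1.80, adjusted p = 0.00194 by limma). SKP2, a ubiquitin ligase subunit that acts on MYC, had 0.687 and 0.739 at 1% oxygen against 3.71 and 2.93 at 20% oxygen (−2.21, corrected −2.01). USP28, a deubiquitinase of MYC, had 3.70 and 3.95 in hypoxic siOCT4 cells against 0.726 and 0.945 in control cells (2.21, corrected 0.83). SET, an inhibitor of the phosphatase PP2A, was lower at 1% oxygen in control cells as deposited (−1.96) and not called when corrected (−0.21, adjusted p = 0.162).

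Of the 15 corepressors through which MXI1 and MNT act, 10 were called higher and 3 lower in siOCT4 against control cells at 1% oxygen (6 and 3 corrected), and 2 higher and 10 lower at 1% against 20% oxygen in control cells (4 and 7 corrected). SIN3A, the scaffold of the complex, had 2.89 and 2.94 in hypoxic siOCT4 cells against 0.541 and 0.656 in control cells (log2 2.29, corrected 1.48, adjusted p = 0.00102 by limma). NCOR1, a nuclear receptor corepressor, had 3.66 and 3.34 against 0.561 and 0.743 in the same groups (2.44, corrected 1.31). RBBP4, a histone-binding subunit, differed by 1.94 there (corrected 0.70). HDAC2, the deacetylase, had 0.705 and 0.764 in hypoxic control cells against 4.39 and 4.14 at 20% oxygen (−2.54, corrected −0.71). HDAC2 is also an example of calls lost to the correction, with 1.69 as deposited and 0.05 corrected (adjusted p = 0.709) in siOCT4 against control cells at 1% oxygen.

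The list made around the PRC1.6 complex, to which MGA belongs with MAX, held 17 tested genes, ATF7IP and SETDB1 among them. In siOCT4 against control cells at 1% oxygen 10 were called higher and 2 lower, and 2 and 5 after correction. At 1% against 20% oxygen in control cells 5 were higher and 9 lower, and 6 and 6 corrected. CBX3, a heterochromatin protein, had 0.753 and 0.899 in hypoxic control cells against 12.1 and 8.57 at 20% oxygen (log2 −3.63, corrected −1.40). RNF2, the catalytic RING subunit, had 0.960 and 1.22 against 9.03 and 5.83 in the same groups (−2.75, corrected −0.61). ATF7IP, a partner of the methyltransferase SETDB1, had 4.93 and 4.59 in hypoxic siOCT4 cells against 0.961 and 0.938 at 20% oxygen (2.32, corrected 0.95). As deposited, the 10 called higher with MGA at 1% oxygen made up 58.8% of the list, against 41.1% of all genes. The 2 called higher after correction made up 11.8%, against 22.0%.

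The known targets of MYC were called in both directions, as were all tested genes. Of 25 target genes of ribosome biogenesis, 12 were called higher and 7 lower in siOCT4 against control cells at 1% oxygen (9 and 5 corrected). These were 48% and 28% of the list (36% and 20% corrected), against 41.1% and 19.9% of all genes (22.0% and 23.0% corrected). At 1% against 20% oxygen in control cells 11 were higher and 12 lower (10 and 7 corrected). Those were 44% and 48% of the list (40% and 28% corrected), against 20.5% and 39.6% of all genes (23.2% and 22.9% corrected). GNL3, the nucleolar protein nucleostemin, had 0.909 and 1.04 in hypoxic control cells against 6.32 and 5.31 at 20% oxygen (log2 −2.58, corrected −1.17, adjusted p = 0.00149 by limma). NPM1, the nucleolar chaperone, differed by −2.27 there (corrected −0.50) and WDR43, a factor of small subunit assembly, by −2.39 (corrected −0.46). POLR1B, a subunit of RNA polymerase I, had 2.33 and 2.71 in hypoxic siOCT4 cells against 0.458 and 0.536 in control cells (2.34, corrected 1.15). The translation ratio says nothing of how strongly MYC transcribed these genes.

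Of 30 target genes of growth and metabolism, 11 were called higher and 10 lower in siOCT4 against control cells at 1% oxygen, and 6 and 14 corrected. These were 36.7% and 33.3% of the list (20% and 46.7% corrected), against 41.1% and 19.9% of all genes (22.0% and 23.0% corrected). In control cells at 1% against 20% oxygen 8 were higher and 14 lower, and 10 and 13 corrected. Those were 26.7% and 46.7% of the list (33.3% and 43.3% corrected), against 20.5% and 39.6% of all genes (23.2% and 22.9% corrected). EIF4E, the cap-binding translation factor, had 0.973 and 1.15 in hypoxic control cells against 7.25 and 7.11 at 20% oxygen (log2 −2.76, corrected −1.25, adjusted p = 0.00114 by limma). TFAM, which packages mitochondrial DNA, differed by −2.78 there (corrected −0.78), PPAT, the first enzyme of purine synthesis, by −2.76 (corrected −0.58), and SLC16A1, a lactate transporter, by −2.42 (corrected −0.83). These 4 fell at 1% oxygen in control cells as MYCN did, and their transcripts held 37.9 to 43.0% GC, against 52.5% in MYCN.

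**Figure D4:**
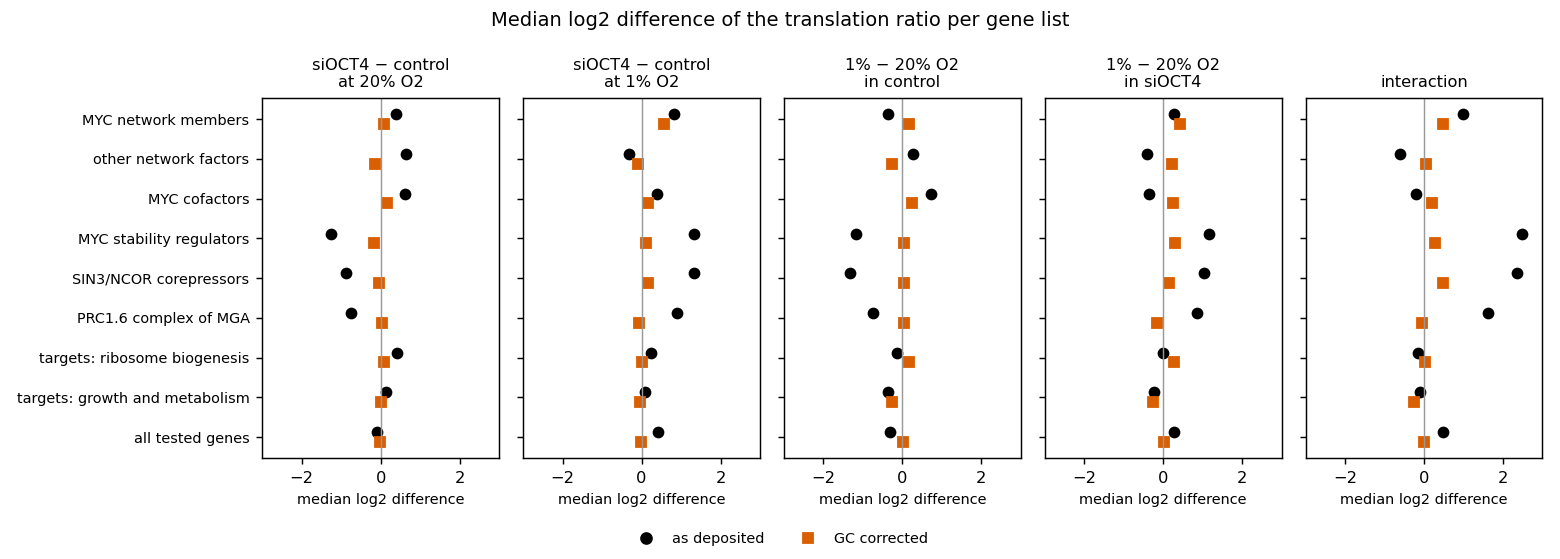
Median log2 difference of the translation ratio for the 6 members, 7 lists of related genes and all tested genes, in the 4 single-factor comparisons and the interaction. Black circles are as deposited and orange squares GC corrected. The stability regulators and the corepressors lie at 1.34 and 1.33 in siOCT4 against control cells at 1% oxygen as deposited and at 0.12 and 0.15 corrected.

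The plot of list medians shows the members beside the lists. Their median in siOCT4 against control cells at 1% oxygen was 0.82 as deposited, against 0.42 over all genes, and 0.56 corrected, against −0.02. In control cells at 1% against 20% oxygen the members' median was −0.36 as deposited, against −0.31 over all genes, and 0.17 corrected, against 0.02. With MYCN and MYC moving in opposite directions there, the median describes no single member.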

How the data were processed

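The deposited table holds the translation ratio of each gene in 8 cultures of H9 cells (16 libraries). It was read as the RNC over the RNA value from the name the authors gave the table and from the paired libraries in the labels; no file header gives the formula. The submitters' processing notes name edgeR and hg19; for mapper, annotation, filters, strand and library totals, nothing is given in the sources used here, so the depth behind a ratio is unknown and no counting interval can be given. Columns marked "sO" were read as siOCT4, the only siRNA in the labels beside the control; the table itself does not spell this out. The log2 ratio of 15864 genes with a ratio in all cultures was fitted in R 4.3.3 with limma 3.58.1 and statmod 1.5.0 (trend and robust settings, 4 group means, 4 residual degrees of freedom), with two-sided tests, p-values adjusted by Benjamini-Hochberg over every tested gene and a threshold of 0.05; no pseudocount was added. The GC correction took residuals from a spline of 6 degrees of freedom on the median transcript GC content within each culture. GC content came from GENCODE 29 on GRCh38, matched by symbol for 96.2% of tested genes (15261); it was used for no coordinates. A ratio was marked as shared where 3 or more genes had it in 1 culture, to a relative tolerance of 2e-06. The 6 members and the 7 lists were chosen with earlier results of these data known. Of each list up to 4 genes were named, those with the largest difference in the 4 single-factor comparisons among called genes whose groups did not overlap and that had no shared ratio. Alternatives were a length correction, median centring, a replicate block, a pseudocount of 0.1, only the groups compared, other limma settings, other gene filters and each culture left out; leaving out cultures on GC corrected values was added after the data were seen. The genes nearest in pattern to MNT are not reported here. The fit was tested on simulated data. These held no GC trend that differed between groups, so they cannot show how the correction handles such a trend. Figures and descriptions used Python 3.11.15 with numpy 2.4.6, pandas 2.3.3 and matplotlib 3.10.9.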

Additional observations from a re-analysis of the deposited data

Results flagged for a closer look

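The effect of the OCT4 siRNA differed between 1% and 20% oxygen, by limma's test of that difference, for 3 members as deposited. The log2 interaction was 2.02 for MYCN, 2.21 for MXI1 and 3.61 for MGA. After GC correction it was 2.13 for MYCN and 0.80 for MGA, both called, and 0.13 for MXI1, which was no longer called (adjusted p = 0.704). MNT (1.58, adjusted p = 0.00185) and MAX (−0.76, adjusted p = 0.0334) were called on the corrected scale. For MGA and MAX the corrected calls were lost when length was corrected for too, and the part that other properties of the transcripts have in these values was not tested. No group was large enough for single cultures to be examined as outliers.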

How the results depend on the processing

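Among the members' log2 differences, those of MYCN at 1% oxygen and in control cells kept their direction and their call under every alternative run. The GC correction could move MYCN little, because the culture medians lay close together at the GC content assigned to it. MGA at 1% against 20% oxygen in siOCT4 cells also kept its direction and call with GC correction (1.07, adjusted p = 0.00452 by limma). With each culture left out its difference ran from 2.15 to 2.52 as deposited and from 0.92 to 1.23 corrected. The number of members called for siOCT4 at 20% oxygen, 4 as deposited, was 0 with the GC correction, 0 with the GC and length correction, 2 with the replicate block, 2 with only the groups compared and 2 to 4 with each culture left out. The replicate block changed 2 calls as deposited, MYC (adjusted p = 0.0526) and MNT (adjusted p = 0.0751) at 20% oxygen, and the 2 corrected calls of MAX, at 1% oxygen (adjusted p = 0.0669) and in the interaction (adjusted p = 0.0606). The difference between the first and second culture correlated between groups at −0.23 to 0.02 over genes. The −0.23, between the control groups at 1% and 20% oxygen, was −0.08 when GC corrected. Such correlations cannot tell whether cultures of the same number shared a day or a batch. Over all genes the median difference in the 5 comparisons was −0.09, 0.42, −0.31, 0.27 and 0.49 as deposited, and −0.011, 0.043, −0.12, 0.0081 and 0.032 after each culture was centred on its median. This centring gave 5 called members in the interaction against 3, with MYC and MAX added, both negative. It moved the split of all calls into higher and lower to 5159 and 4626 from 6516 and 3156 for siOCT4 at 1% oxygen, and to 4982 and 4615 from 5936 and 3426 for oxygen in siOCT4 cells. With cultures left out, corrected counts ran from 1 to 3 in control cells (3 with all) and from 2 to 4 in the interaction (4 with all).

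Direction turned in these cases. At 20% oxygen MNT was −0.14 with the GC correction (−0.14 with length as well) and MGA 0.020. In siOCT4 against control cells at 1% oxygen MXI1 was −0.24 (−0.16 with length), MAX 0.045 with length, MYC −0.33 with median centring. In control cells at 1% against 20% oxygen MXI1 was 0.058 (0.046 with length), MNT −0.44 (−0.47) and MGA 0.28 (0.14). In siOCT4 cells MAX was 0.14 with length, and median centring gave −0.081 for MYCN and −0.011 for MNT. In the interaction MYC was 0.19 (0.22 with length) and MNT 1.58 (1.47). With cultures left out as deposited, MYC ran from −0.073 to 0.18 at 1% oxygen, MNT from −0.049 to 0.63 in control cells and −0.38 to 0.30 in the interaction, and MYCN from −0.35 to 0.71 in siOCT4 cells. Corrected, MGA ran from −0.14 to 0.18 at 20% oxygen, MXI1 from −0.16 to 0.28 in control cells and −0.094 to 0.35 in the interaction, and MYCN from −0.36 to 0.67 in siOCT4 cells. The cause was not tested for these.

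Over all genes the calls for siOCT4 at 20% oxygen were 8450 as deposited, 2315 GC corrected, 503 with the replicate block added, and 4 and 2 without the first or second siOCT4 culture at 20% oxygen, so 0 corrected member calls there say little. The calls were 9672 and 6305 with length for siOCT4 at 1% oxygen, 9362, 5746 and 4570 for oxygen in siOCT4 cells, and 10893, 6750 and 6507 for the interaction, in the order deposited, GC, GC and length. Without the depth behind each ratio, its precision is known only from the spread of 2 cultures.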
